A study of Mus musculus with 8 samples.

Results

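The genes described here are *Nr3c1*, which encodes the glucocorticoid receptor, and 9 genes that glucocorticoids are known to induce in many tissues: *Tsc22d3*, *Fkbp5*, *Per1*, *Klf9*, *Dusp1*, *Errfi1*, *Zbtb16*, *Sgk1* and *Cebpd*. They were chosen by symbol, with earlier results of these data known. All 10 were among the 24059 symbols of the count table, and all 10 passed the filter on low counts together with 14934 genes in all. Their mRNA was measured in 8 samples of bone marrow–derived mast cells (BMMCs), a primary culture that turns marrow progenitors into mast cells. The marrow came from C57BL/6 mice of 6 to 8 wk of age and was cultured with IL-3 for at least 4 wk. The BMMCs were then electroporated with Cas9 ribonucleoproteins (RNPs) and kept for 1 wk before RNA was extracted. In 4 samples, named Scrambled and labelled Zc3h12a WT, the RNP carried a scrambled guide RNA, and in 4 samples, named Zc3h12a-RNP and labelled Zc3h12a KO, the guides targeted *Zc3h12a*, the gene of the RNase Regnase-1. All 8 samples thus had Cas9 and electroporation in common, and the edited cells were a pooled population rather than a clone. The study's culture recipe lists no added glucocorticoid, but it includes fetal bovine serum, whose hormone content is not given. Samples of each group were numbered 1 to 4, and samples of the same number were treated as a pair.

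The glucocorticoid receptor rests in the cytosol in a complex with heat shock proteins and immunophilins. After binding its hormone it moves into the nucleus, where it activates genes through palindromic DNA elements and restrains inflammatory genes driven by NF-κB and AP-1. Glucocorticoids are widely used to dampen mast cell activity, and *Dusp1* and *Tsc22d3* are among the genes known to be induced by them in mast cells.

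Between 19610240 and 33986762 reads were counted on genes in a Scrambled sample, and between 23712029 and 28564062 in a Zc3h12a-RNP sample. Levels are given as CPM, counts scaled to a common TMM-normalized library size. *Zc3h12a* itself was at 34.8 ± 6.65 CPM in Scrambled and 33.2 ± 5.91 CPM in Zc3h12a-RNP (mean ± SD over 4 samples each), so the level of the targeted mRNA gives no check of the labels. The labelled cell type was checked against its markers. The 10 mast cell markers, among them *Kit*, *Fcer1a*, *Ms4a2* and *Cpa3*, summed to 55460 to 65430 CPM in Scrambled and 53220 to 56440 CPM in Zc3h12a-RNP samples. *Cpa3* alone was at 26730 to 34240 CPM over all samples, whereas *Mcpt4* of the same list was at only 2.24 to 7.94 CPM. The 8 macrophage markers summed to 9.04 to 11.4 CPM in Scrambled and 9.38 to 13.0 CPM in Zc3h12a-RNP samples. Most of this came from *Cd68* (4.0 to 9.0 CPM) and *Adgre1* (1.9 to 4.1 CPM), with *Csf1r*, *C1qa* and *C1qb* at no more than 3 counts. The 4 basophil markers, mostly *Cd200r3*, which mast cells also express, summed to 501 to 542 CPM in Scrambled and 445 to 511 CPM in Zc3h12a-RNP samples. The 6 B and T cell markers reached at most 5.71 CPM, with *Cd8a* at 0 counts throughout, the 3 of 7 neutrophil markers in the table at most 0.333 CPM, and the 5 of 6 erythroid and megakaryocyte markers 1265 to 2030 CPM, nearly all from *Itga2b*. These are bulk samples, in which fewer cells of a type and less RNA per cell cannot be told apart.

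The DNA element of the receptor was represented by 1 palindromic form, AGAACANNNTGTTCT. It was searched on both strands within 5 kb on each side of the start of the canonical transcript in GRCm39, allowing 1 letter to differ. The full element stood near 1 of the 10 genes and near 0.12% of 21724 protein-coding genes; with up to 1 differing letter it stood near 2 of the 10 genes and near 6.5% of all. These 3 places, in *Sgk1* and *Per1*, are printed because they were the only matches in these windows. Capitals mark the paired 6-letter arms of the element.
Sgk1, chr10:21869593-21869621 of GRCm39, plus strand, no letter different: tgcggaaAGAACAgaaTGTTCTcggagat
Per1, chr11:68987895-68987923 of GRCm39, plus strand, 1 letter different: agccaagAGAACAcgaTGTTCCctagtgc
Per1, chr11:68990235-68990263 of GRCm39, plus strand, 1 letter different: tcaggctGGAACAtccTGTTCTcagcgct

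The *Sgk1* match lay 958 bp before the canonical start, outside 18 of its 23 annotated transcripts and in an intron of the other 5. The first *Per1* match lay 1359 bp before the canonical start, outside 7 of 10 transcripts and in an intron of 3, and the second lay 981 bp after the start, in an intron of the canonical transcript. In the shorter promoters of RefSeq (GRCm38.p6, 250 bases before to 50 after each start), 7 of the 10 genes had an entry. The full element was found in 3 of 32851 such promoters, 1 of them belonging to *Sgk1*. It has the same letters as the *Sgk1* match printed above and is not a further match. The hexamer AGAACA, on either strand, occurred in 18.97% of all promoters, and among the matched genes in *Sgk1* and *Tsc22d3*. This share is per promoter, whereas *Sgk1* has 6 promoters and *Tsc22d3* has 3. A match of letters is a description of the sequence and was not tested for binding. Elements with more differing letters, or outside the searched windows, would not have been found.

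The receptor gene *Nr3c1* was among the steadiest of these genes. It was at 143, 184, 146 and 164 CPM in Scrambled samples 1 to 4 and at 135, 174, 153 and 189.5 CPM in the Zc3h12a-RNP samples of the same numbers. The groups overlapped throughout, with the RNP sample lower in pairs 1 and 2 and higher in pairs 3 and 4. The fitted log2 fold change of Zc3h12a-RNP against Scrambled, given with its standard error (SE) here and for the genes that follow, was 0.03 ± 0.08 (adjusted p = 0.972, edgeR's quasi-likelihood test with Benjamini-Hochberg adjustment).

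*Tsc22d3*, at chrX:139440091-139501408 of GRCm39, encodes GILZ, a leucine zipper protein that restrains NF-κB and AP-1. Its CPM was 119, 42.9, 36.3 and 124 in Scrambled samples 1 to 4. In the paired Zc3h12a-RNP samples it was 36.9, 30.3, 22.7 and 57.1. Scrambled samples 1 and 4 stood about as high as each other and far above samples 2 and 3, which lay within the range of the RNP group, and every RNP sample was lower than its own partner. The difference within a pair was -1.69, -0.50, -0.68 and -1.11 in log2 CPM, and the fitted log2 fold change was -1.01 ± 0.19, the largest decrease in value among the 10 genes (unadjusted p = 0.000776, adjusted p = 0.401, edgeR).

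*Fkbp5*, at chr17:28618058-28737521, encodes the immunophilin FKBP51, which lowers the affinity of the receptor complex for hormone and so closes a feedback loop. It was at 78.6, 32.6, 49.3 and 71.0 CPM in Scrambled samples and at 46.2, 32.6, 41.7 and 45.7 CPM in Zc3h12a-RNP samples. As with *Tsc22d3*, Scrambled samples 1 and 4 were the highest, whereas the RNP samples lay close together with a mean of 41.5 ± 6.27 CPM (SD, n = 4). The pair differences were -0.77, 0.00, -0.24 and -0.64 in log2 CPM. The fitted log2 fold change was -0.42 ± 0.13 (unadjusted p = 0.015, adjusted p = 0.662, edgeR); without replicate 1 the fitted value was -0.25, with an unadjusted p of 0.151.

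*Per1*, at chr11:68986035-69002300, is a period gene of the circadian clock that the receptor also induces. It was the only one of the 10 genes whose groups did not overlap, a pattern that 0.924% of all genes tested had in either direction. Its CPM was 279, 226, 431 and 369.8 in Scrambled samples and 149, 210.3, 199 and 221 in Zc3h12a-RNP samples. The lowest Scrambled sample and the highest RNP sample were nearly level, and they belong to different pairs. The pair differences were -0.91, -0.11, -1.12 and -0.75 in log2 CPM, with a fitted log2 fold change of -0.72 ± 0.16 (unadjusted p = 0.00214, adjusted p = 0.424, edgeR).

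*Klf9*, at chr19:23118187-23148497, encodes a Krüppel-like transcription factor that is an early target of the receptor. It was at 61.6, 80.0, 158 and 58.6 CPM in Scrambled and at 43.2, 70.6, 101 and 42.6 CPM in Zc3h12a-RNP samples. Replicate 3 was the highest in both groups, and the RNP sample was lower in each pair, so that the ranges of the groups overlapped although all 4 pairs had the same direction. The pair differences of -0.51, -0.18, -0.64 and -0.46 in log2 CPM gave a fitted log2 fold change of -0.45 ± 0.09, the narrowest SE of the genes lower in all pairs (unadjusted p = 0.00174, adjusted p = 0.424, edgeR).

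*Dusp1*, at chr17:26724564-26781102, encodes a phosphatase that switches off the MAP kinases p38 and JNK and is also induced by growth factors and stress. It varied most between replicates among the genes above 20 CPM, with 74.1, 119, 257 and 513 CPM in Scrambled and 39.5, 97.9, 166 and 266 CPM in Zc3h12a-RNP samples. The highest sample was 6.92 times the lowest in Scrambled and 6.74 times in Zc3h12a-RNP, with replicate 1 lowest and replicate 4 highest in both groups. The pair means had an SD of 1.19 in log2 CPM, while the pair differences, of -0.91, -0.29, -0.63 and -0.95, had an SD of 0.305. The fitted log2 fold change was -0.69 ± 0.12 (unadjusted p = 0.000576, adjusted p = 0.401, edgeR), and without the replicate block the unadjusted p was 0.251.

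*Errfi1*, at chr4:150938376-150955402, encodes MIG6, an inhibitor of the EGF receptor family that glucocorticoids and mitogens both induce. Its CPM was 199, 189.8, 471 and 204 in Scrambled and 98.9, 192, 209 and 106.9 in Zc3h12a-RNP samples. Scrambled replicate 3 stood apart from the other 3, and pair 2 was level while the other pairs were lower by similar amounts. The pair differences were -1.01, 0.01, -1.17 and -0.93 in log2 CPM. The fitted log2 fold change was -0.78 ± 0.19 (unadjusted p = 0.0036, adjusted p = 0.449, edgeR), and without replicate 3 it was -0.70.

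The other 3 genes were low in these cells. *Cebpd* (chr16:15705150-15708895), a C/EBP transcription factor of acute responses, was at 4.56, 5.20, 3.78 and 4.85 CPM in Scrambled and 3.92, 5.42, 2.80 and 5.36 CPM in Zc3h12a-RNP samples. *Sgk1* (chr10:21758083-21875802), a kinase that promotes sodium transport and cell survival, was at 1.43, 2.83, 3.82 and 5.38 CPM in Scrambled and 1.42, 4.59, 6.25 and 2.86 CPM in Zc3h12a-RNP samples. Both genes overlapped fully between the groups, with pairs in both directions for *Cebpd* and with pairs 2 and 3 higher, pair 1 level and pair 4 lower for *Sgk1*. The fitted log2 fold changes were -0.11 ± 0.24 for *Cebpd* and 0.13 ± 0.37 for *Sgk1*. *Zbtb16* (chr9:48563141-48748664), which encodes the zinc finger repressor PLZF, was at 1.27, 0.0333, 1.93 and 1.86 CPM in Scrambled and 1.39, 2.38, 3.95 and 0.974 CPM in Zc3h12a-RNP samples. Scrambled sample 2 rested on 1 count, and the fitted log2 fold change was 1.00 ± 0.99 (adjusted p = 0.96, edgeR), or 0.16 without replicate 2 and 1.72 without replicate 4. Low genes as a group differed by pair: over 5157 tested genes with edgeR's average log2 CPM under 2, the median pair difference was 0.40, 1.68, 0.02 and -0.93, against -0.03, -0.08, 0.01 and 0.06 over the 9777 genes at or above 2. Scrambled sample 2 had the most reads counted but the fewest genes with a count, 18365. Scrambled sample 4 had the fewest reads counted but the most genes with a count, 20238. In the Zc3h12a-RNP samples 19544 to 19990 genes had a count. *Zbtb16* and *Sgk1* were both under 2. *Zbtb16* had pair differences of 0.12, 4.51, 1.01 and -0.88, and *Sgk1* of -0.0047, 0.68, 0.70 and -0.90. The part of the shift of low genes in the values of *Zbtb16* and *Sgk1* was not tested.

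**Figure D1:**
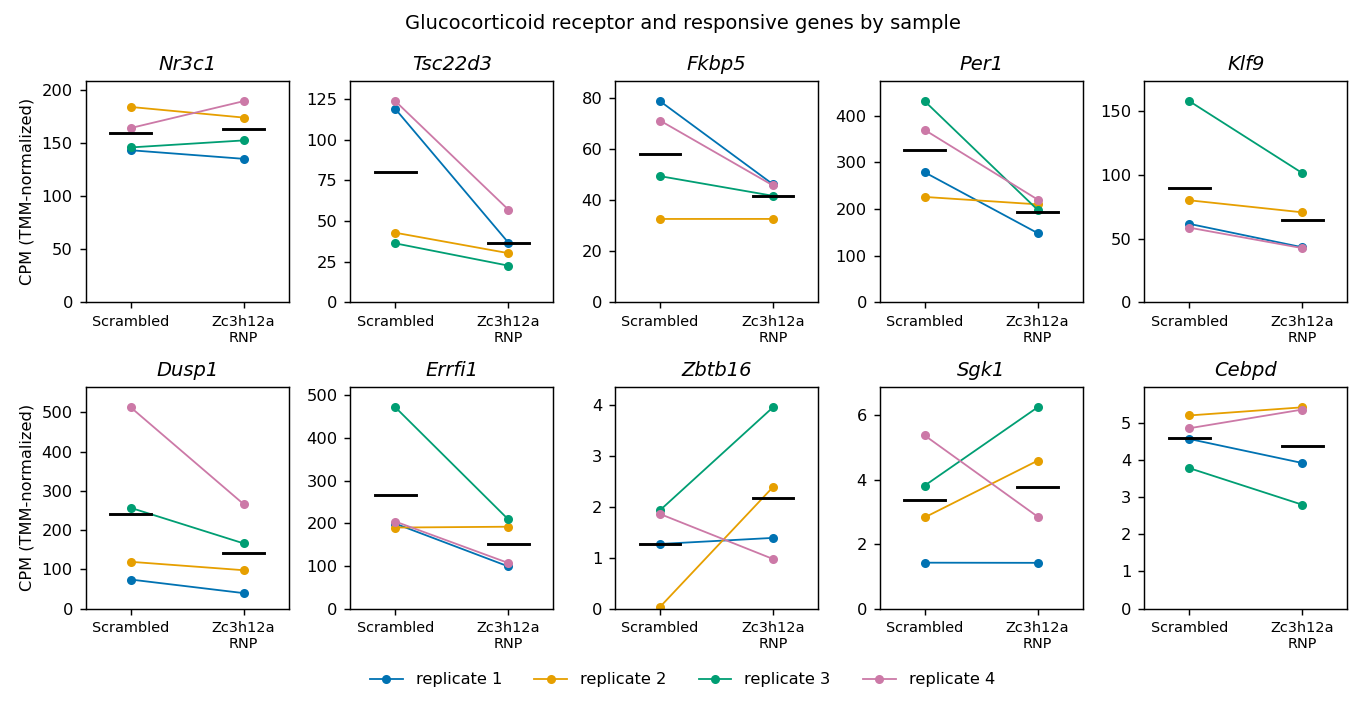
CPM of each of the 10 genes (vertical axes from 0, TMM-normalized) in Scrambled and Zc3h12a-RNP samples, with 1 point per sample, lines joining samples of the same replicate number and bars at the group means. *Tsc22d3*, *Per1*, *Klf9* and *Dusp1* slope down in all 4 pairs, *Per1* alone has groups that do not overlap, and *Nr3c1* has pairs in both directions.

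To compare levels between genes, CPM was divided by the length of the union of exons in kilobases. In Scrambled samples the order by mean CPM per kilobase was *Dusp1* at 72.4 ± 59.4, *Errfi1* at 44.9 ± 23.1, *Per1* at 42.6 ± 12.0 and *Nr3c1* at 20.2 ± 2.40, followed by *Tsc22d3* at 13.0 ± 7.64, *Klf9* at 10.9 ± 5.65 and *Fkbp5* at 5.23 ± 1.89 (SD, n = 4 each). *Cebpd* at 1.23 ± 0.161, *Sgk1* at 0.559 ± 0.277 and *Zbtb16* at 0.135 ± 0.093 closed the order. The ranges of *Dusp1*, *Errfi1* and *Per1* overlapped one another, as did those of *Nr3c1* with *Tsc22d3* and of *Tsc22d3* with *Klf9*, so that these neighbours did not differ beyond their spread. The range of *Per1* (29.5 to 56.3) lay above that of *Nr3c1* (18.2 to 23.4), and the lowest *Klf9* sample (7.13) was barely above the highest *Fkbp5* sample (7.10).

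**Figure D2:**
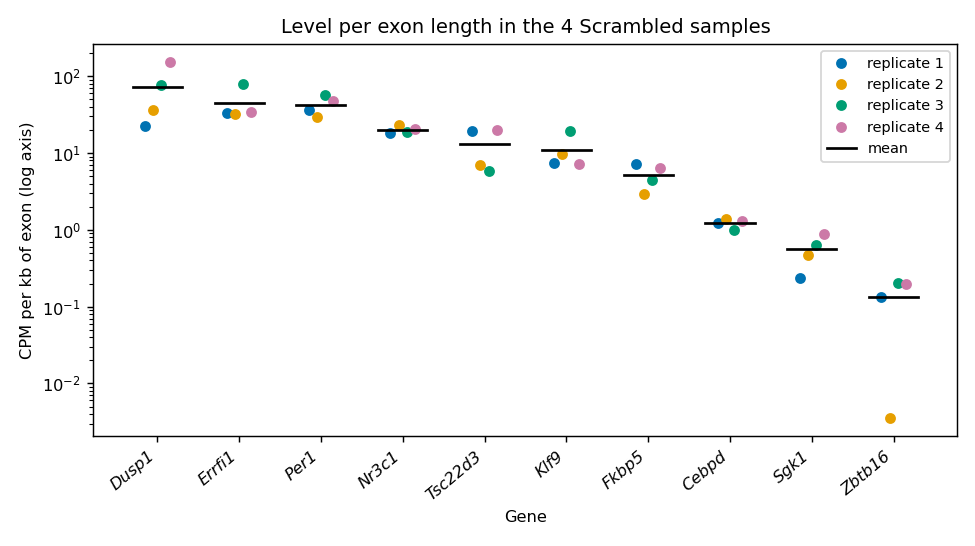
CPM per kilobase of exon (log axis) of the 10 genes in the 4 Scrambled samples, ordered by mean, with 1 point per sample and bars at the means. *Nr3c1* is tightly grouped around 20.2, *Dusp1* spreads from 22.3 to 154, and *Zbtb16* is lowest, with replicate 2 at 0.00355.

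Related steroid receptors were set beside *Nr3c1* on the same scale. In Scrambled samples the mineralocorticoid receptor gene *Nr3c2* was at 0.135 ± 0.116 and the progesterone receptor gene *Pgr* at 11.0 ± 2.77 CPM per kilobase. *Hsd11b1*, whose enzyme regenerates active glucocorticoid inside cells, was at 0.607 ± 0.219 CPM per kilobase, and *Hsd11b2*, whose enzyme inactivates it, had at most 2 counts in any sample. The cochaperone gene *Fkbp4*, whose product opposes FKBP51, was at 28.5 ± 6.12, above the 5.23 ± 1.89 of *Fkbp5*. These genes were taken from the lists described below, after their values were seen.

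Across the 10 genes, none passed a log2 fold change beyond 0.5 with an adjusted p at or under 0.05 in edgeR's test, as for 0% of all genes tested in either direction. At an unadjusted p at or under 0.05, 6 of the 10 genes were lower and 0 higher, whereas 4.05% of all genes tested were lower at that p and 6.17% were past it in either direction. The 6 were *Tsc22d3*, *Fkbp5*, *Per1*, *Klf9*, *Dusp1* and *Errfi1*. The 10 genes were chosen with earlier results of these data known. That choice could have raised such counts, so they are given only as a description. Limma-trend called 0 of the 10. With the block kept, the Wald test of DESeq2 called 4 of them lower, *Tsc22d3* (adjusted p = 6.78e-06), *Per1* (0.000143), *Dusp1* (4.41e-06) and *Errfi1* (0.00024), against 0.328% of all genes tested that it called lower. Over all 12 alternatives the adjusted p ran from 2.97e-07 to 1 for *Tsc22d3*, from 0.000143 to 1 for *Per1*, from 4.41e-06 to 1 for *Dusp1* and from 2.66e-05 to 1 for *Errfi1*. Without replicate 2, edgeR called the same 4 genes lower (against 0.378% of all genes). Without replicate 1, 3 or 4 it called 0 of the 10. Pair 2 had the smallest difference for each of these 4 genes. The 4 genes were also called lower by edgeR without the low-count filter (0.132%) and by limma-trend after the replicate effect had been removed (0.529%). That limma-trend fit does not count the removed effect in its degrees of freedom, so its p-values are too small. It had 581 genes at an adjusted p at or under 0.05, against 1 for limma-trend with the block kept. Without the replicate block, 3 of the 10 (*Tsc22d3*, *Per1* and *Errfi1*) were lower at an unadjusted p at or under 0.05, and 0.596% of all genes.

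By direction alone, 4 of the 10 genes (*Tsc22d3*, *Per1*, *Klf9* and *Dusp1*) were lower in all 4 pairs, compared with 8.54% of all genes tested, and 3 of them (*Tsc22d3*, *Per1* and *Dusp1*) also had a log2 fold change under -0.5, compared with 1.08%. A fitted value below 0 was found for 7 of the 10 genes and for 42.2% of all. An exact sign-flip permutation test over the pairs, two-sided, gave each of these 4 a p of 0.125, the smallest p that 4 pairs allow, and *Fkbp5* and *Errfi1* gave 0.25. The median log2 fold change of the 10 genes was -0.43, beside 0.04 over all genes tested. These counts and this median carry the limit given above on how the genes were chosen. The pairs contributed unequally, with medians over the 10 genes of -0.64, -0.04, -0.53 and -0.81 in pairs 1 to 4. For each of the 6 genes named above, pair 2 had the smallest difference, from -0.50 for *Tsc22d3* to 0.01 for *Errfi1*. Of the 10 mast cell markers, 9 also had a fitted value below 0 (median log2 fold change -0.12) and 4 were lower in all pairs. Those with the lowest p were *Tpsb2* at -0.28, *Hdc* at -0.75, which DESeq2 called, *Cpa3* at -0.16 and *Ms4a2* at -0.10. The part of these markers in the values of the glucocorticoid-responsive genes was not tested.

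**Figure D3:**
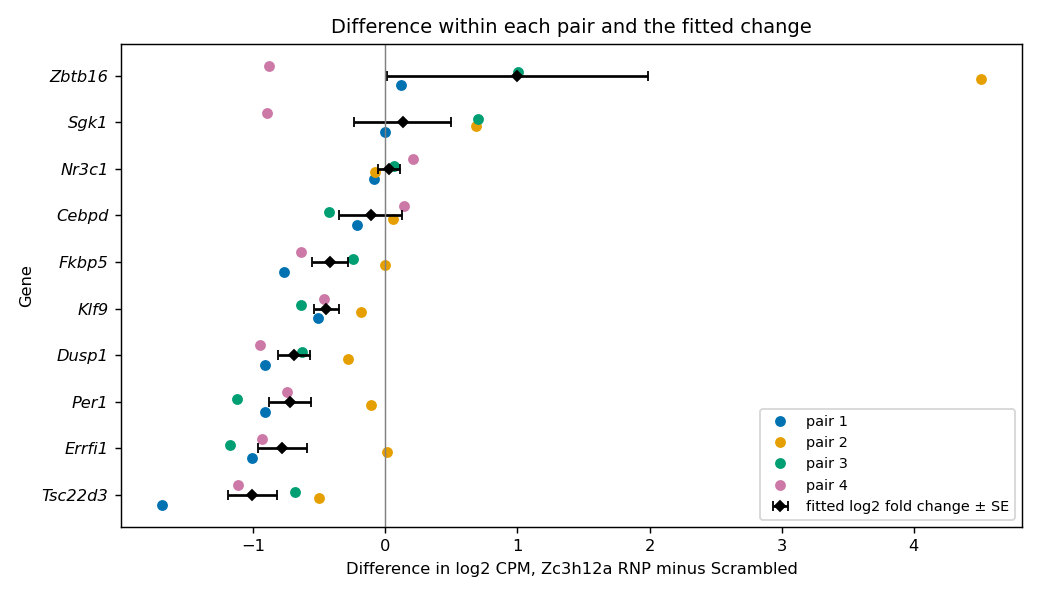
Difference in log2 CPM, Zc3h12a-RNP minus Scrambled, within each pair (coloured points) and the fitted log2 fold change with its standard error (black) for the 10 genes. Pair 2 lies nearest to 0 for *Tsc22d3*, *Per1*, *Klf9*, *Dusp1*, *Errfi1* and *Fkbp5*, and the single far point of *Zbtb16*, at 4.51, rests on 1 count.

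The genes differed in which replicates were high, so they did not move as a block across samples. *Tsc22d3* and *Fkbp5* were high in Scrambled replicates 1 and 4 (Pearson r of 0.823 over the 8 samples), whereas *Klf9* and *Errfi1* were highest in replicate 3 (r of 0.926), and *Tsc22d3* and *Klf9* had an r of -0.405. These correlations are descriptions over 8 samples that share replicates and the RNP contrast. Likeness was measured by this r over the 9668 genes whose log2 CPM, averaged directly over the 8 samples rather than by edgeR, exceeded 2, and the genes most like *Tsc22d3* were *Pag1* (r of 0.976), *Mfhas1* (0.973), *Birc3* (0.972), *Vcan* (0.971) and *Retreg1* (0.961). Those most like *Per1* were *Rassf1* (0.921), *Jaml* (0.917), *Paip1* (0.913), *Dnaja4* (0.894) and *Gcc2* (0.885), and those most like *Nr3c1* were *Gpr174* (0.944), *Lncpint* (0.941), *Fbxo28* (0.923), *Dnah7a* (0.918) and *Cemip2* (0.916).

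Other genes of the pathway were described from lists, by counts and medians and without a test of the list. The lists too were chosen with earlier results of these data known. Over all genes tested, 42.2% had a fitted value below 0. By edgeR, 4.05% of all genes tested were lower at an unadjusted p at or under 0.05. No gene of these lists passed the thresholds in edgeR's test or in limma-trend, and DESeq2's calls are named below with their genes. Among other genes that glucocorticoids induce, 22 of 28 were tested, 16 with a fitted value below 0 and 6 above, with a median log2 fold change of -0.12. Of these, 6 were lower and 0 higher at an unadjusted p at or under 0.05. The number lower was 2 without the replicate block (beside 0.596% of all genes tested), 1 without replicate 1 and 3 without replicate 4. *Il1r2*, the IL-1 decoy receptor, was at 170.2 ± 54.9 CPM in Scrambled and 109.9 ± 42.7 CPM in Zc3h12a-RNP samples (log2 fold change -0.65, SE 0.13, adjusted p = 0.401, edgeR), was lower in all 4 pairs and was called by DESeq2. *Nfkbia*, the gene of the NF-κB inhibitor IκBα, was at 25.5 ± 2.96 and 18.4 ± 4.25 CPM, a fitted log2 fold change of -0.49 ± 0.12, also lower in all pairs. *Irs2*, an adaptor of insulin signalling, and *Timp3*, a metalloproteinase inhibitor, had fitted values of -0.44 and -0.38 and were lower in 3 of 4 pairs. In the opposite direction, *Anxa1*, the gene of annexin A1, was low in these cells and higher in all 4 pairs, at 3.13 ± 0.482 CPM in Scrambled and 4.81 ± 0.972 CPM in Zc3h12a-RNP samples (log2 fold change 0.61, SE 0.27, unadjusted p = 0.0546, edgeR); it was chosen after its values were seen.

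By the median fitted change, the machinery around the receptor differed little between the groups. Of 17 tested genes of chaperones and hormone metabolism, 9 were above 0 and 8 below, with a median log2 fold change of 0.01, and only *Bag1*, a cochaperone of HSP70, had an unadjusted p at or under 0.05 (log2 fold change -0.22, SE 0.08). The next by p were *Dnaja1*, *Hsp90ab1* and *Hspa4*, of the heat shock protein families, at -0.17, -0.12 and -0.09. Of 16 coregulators, 9 were above 0 and 7 below, with a median of 0.01 and 0 at an unadjusted p at or under 0.05. The lowest p among them belonged to *Ipo13*, the importin that carries the receptor into the nucleus, at a log2 fold change of 0.24, followed by *Trim28* at 0.20, *Ncoa2* at 0.09 and *Nrip1* at -0.09.

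Among 20 tested paralogs of the 10 genes, 10 were above 0 and 10 below (median log2 fold change -0.01). *Klf13*, the paralog of *Klf9*, was lower in all pairs at -0.36 ± 0.10. *Cebpg* was higher in all pairs at 0.23, with *Cebpb* at -0.34 next by p. *Klf14* followed at 0.99 ± 0.68 (unadjusted p = 0.184, edgeR). It was low, at 1.12 ± 0.90 CPM in Scrambled and 1.77 ± 0.50 CPM in Zc3h12a-RNP samples (SD). The period paralogs were closer to 0 than *Per1*, *Per2* at -0.05 ± 0.09 and *Per3* at -0.06 ± 0.09; both were singled out after their values were seen. Of 16 clock genes, 12 were below 0 and 4 above with a median of -0.05. *Rora*, a nuclear receptor of the clock, alone had an unadjusted p at or under 0.05 (log2 fold change -0.51, SE 0.18). Next by p were *Bhlhe41* at 0.81 ± 0.68 (unadjusted p = 0.271, edgeR), *Ciart* at -0.20 and *Tef* at -0.06. *Bhlhe41* was low, at 1.81 ± 1.79 CPM in Scrambled and 2.14 ± 0.62 CPM in Zc3h12a-RNP samples (SD). The difference between *Per1* and the other period and clock genes was not tested.

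Because *Dusp1*, *Errfi1*, *Per1* and *Klf9* are also early response genes of other stimuli, 21 immediate early genes were set beside them. Of these, 13 were below 0 and 8 above, with a median log2 fold change of -0.11. At an unadjusted p at or under 0.05, 3 were lower and 0 higher, beside 4.05% of all genes tested that were lower. The 3 were *Klf2* at -0.49 (SE 0.13), *Nr4a3* at -0.75 (SE 0.21), which DESeq2 called, and *Junb* at -0.21 (SE 0.07), each lower in 4 of 4 pairs. *Klf2* was at 190 ± 202 CPM in Scrambled and 159 ± 194 CPM in Zc3h12a-RNP samples (SD). *Nr4a3* was at 117 ± 201 and 49.2 ± 74.9 CPM, so that for *Klf2* and *Nr4a3* the SD exceeded the mean in each group. *Ier3*, next by p, was at 0.17. Of 12 tested inflammatory genes that glucocorticoids repress, 9 were above 0 and 3 below with a median of 0.10. *Tnf* was higher in all pairs at 0.84 ± 0.18 (adjusted p = 0.424, edgeR) and was called by DESeq2. The study also reports raised *Tnf* in these unstimulated cells and describes the *Tnf* 3′UTR as a direct target of Regnase-1. The part of either kind of regulation in the value of *Tnf* was not tested. *Icam1*, *Ccl3* and *Il1b* were at 0.21, 0.26 and 0.37. Whether the early genes and the glucocorticoid-responsive genes have a common source of variation was not tested.

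**Figure D4:**
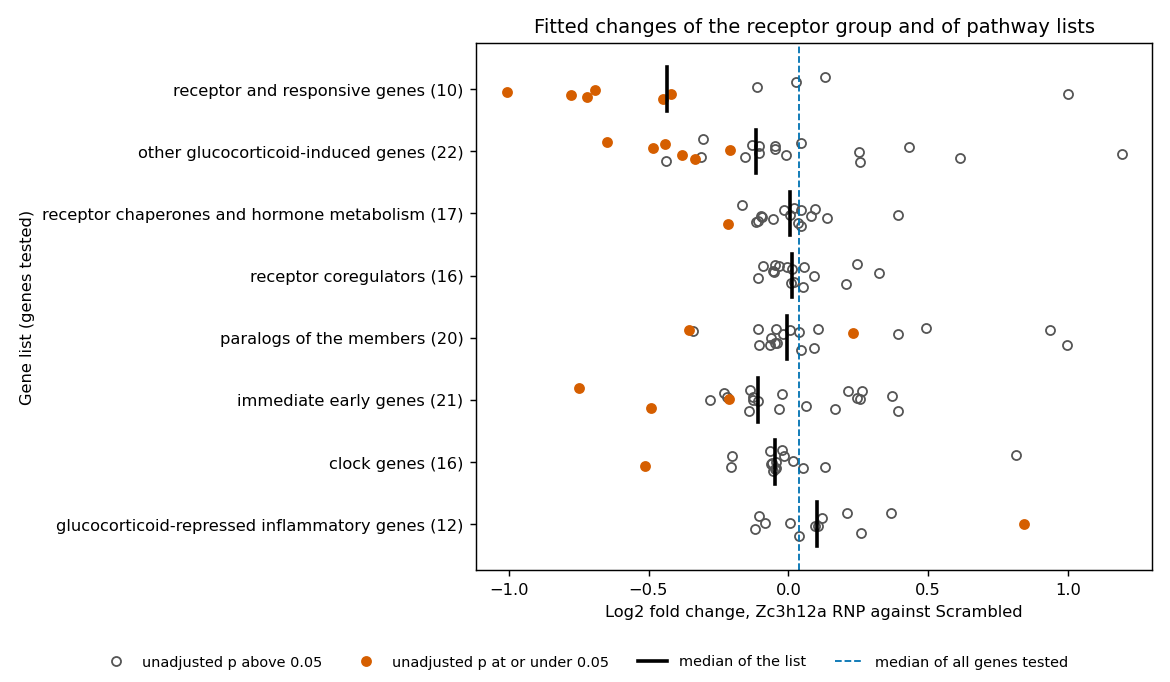
Fitted log2 fold changes of Zc3h12a-RNP against Scrambled (horizontal axis) for the 10 genes and 7 lists, with 1 point per tested gene, filled where the unadjusted p is at or under 0.05, bars at the list medians and a dashed line at the median of all genes tested, 0.04. The 10 genes have a median of -0.43 and 6 filled points, the other induced genes a median of -0.12 and 6 filled points, and the chaperones, coregulators and paralogs have medians near 0. Of all genes tested, 6.17% were at such a p in either direction.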

How the data were processed

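RNA of 8 BMMC samples was analysed. From poly(A) libraries the authors made read counts with HISAT2 2.2.1 (genome GRCm39) and featureCounts 2.0.1 after quality control with FastQC 0.11.9, per their methods and processing notes, and deposited them per gene symbol. The deposited counts are whole numbers, without the removal of batch effects named in the methods. The strand setting and the treatment of reads with several matches are not given in the sources used here; *Dusp1* overlaps *Ergic1* and *Cebpd* overlaps *Spidr* on the opposite strand, so reads there could be shared.

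The test was edgeR's quasi-likelihood F test (edgeR 4.0.16, R 4.3.3) after filterByExpr and TMM, with replicate number and RNP in the model. Calls required a log2 fold change beyond 0.5 and, after Benjamini-Hochberg adjustment over all genes tested, a p of at most 0.05. Standard errors are the size of the fold change on the log2 scale over the square root of F. Log2 CPM used a prior count of 2. Alternatives used DESeq2 1.42.0, limma 3.58.1, no block, the replicate effect removed first, other normalizations and filters, and each replicate left out. Exon lengths came from GENCODE vM39 and promoters from RefSeq. The 10 genes, the lists and the tests were chosen with earlier results of these data known. Named genes are the 10 genes, *Zc3h12a*, the 4 genes of each list with the lowest p, the 5 genes most like *Nr3c1*, *Tsc22d3* and *Per1*, and those said to be chosen after their values were seen. Replicates of a group all differed beyond sampling noise, with a chi-square of at least 58.3 per degree of freedom. The labels do not state that samples are separate mice; the study describes independent replicates. In fits with the replicate block, the p-values set a change against the spread of these samples that remains after the block. In edgeR's fit without the block, they set it against the whole spread within the groups. Python 3.11.15 and matplotlib 3.10.9 drew the figures.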

Additional observations from a re-analysis of the deposited data

Results flagged for a closer look

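*Errfi1* in Scrambled replicate 3 stood apart from the other Scrambled samples. Its gap to the nearest of them was 0.95 of the whole range of the group, above Dixon's 95% critical value for 4 samples. *Zc3h12a* in Scrambled replicate 1 was set apart in the same way, with a gap of 0.846 of the range. In all, 24 groups were examined, of which chance alone would mark about 1.2.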

How the results depend on the processing

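The 10 genes called numbered 0 in the fit as reported, 0 to 4 over the leave-one-out fits, and 4 with DESeq2, with the replicate effect removed before limma-trend, and with no low-count filter, each time *Tsc22d3*, *Per1*, *Dusp1* and *Errfi1*. Over all genes, the number higher was 8 with DESeq2, 34 with the replicate effect removed first, 9 with no low-count filter and 0 to 80 without 1 replicate. The number lower was 49 with DESeq2, 1 with limma-trend, 79 with the replicate effect removed first, 1 with RLE normalization, 31 with no filter, 3 with at least 10 counts required in every sample and 0 to 57 without 1 replicate; in both directions the highest of the leave-one-out values came without replicate 2. Without the replicate block, 0 of the 10 genes were called and 3 rather than 6 were lower at an unadjusted p of at most 0.05; without 1 replicate these were 5 to 6, counts added after seeing the data. Same-numbered samples had correlations of their deviations from the group means of 0.595, 0.075, 0.624 and 0.041 over all genes, where samples of different numbers had up to 0.398, and of 0.717 to 0.756 over 9668 genes above a log2 CPM of 2, where samples of different numbers had up to 0.137; what a number marks is not stated in the labels or methods. The sign reversed for *Nr3c1* without replicate 3 and without replicate 4, with a range of -0.039 to 0.12 over the leave-one-out fits, and for *Sgk1* without replicate 2 and without replicate 3, with a range of -0.13 to 0.48. The cause was not tested. The fold changes of *Tsc22d3*, *Fkbp5*, *Per1*, *Klf9*, *Dusp1*, *Errfi1*, *Cebpd* and *Zbtb16* kept their direction in every alternative that could be fitted; *Zbtb16* ranged from 0.16 to 1.72 without 1 replicate and was removed by the requirement of 10 counts. *Klf9* reached an adjusted p of 0.0121 in limma-trend with the replicate effect removed first (0.0121 to 1 over the alternatives), at a log2 fold change within 0.5. In that fit the removed effect is not counted in the degrees of freedom, so its p-values are too small. With DESeq2 and the block kept, the adjusted p of *Klf9* was 0.0319. All 40 levels moved by less than 1 SD under other normalizations. Counts of 1 to 96 limit what *Zbtb16* can show.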
